A study of Capra hircus with 36 samples.

Results

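The microRNA (miRNA) miR-126 is best known from endothelial cells, which line blood and lymph vessels. Its hairpin lies within EGFL7, a gene for a secreted endothelial protein, and the goat MIR126 gene also lies within EGFL7 in the RefSeq table of assembly ARS1.2. The hairpin is cut into a short duplex, and each strand of the duplex can be kept as a mature arm, named 3p or 5p by its side of the hairpin. miR-126-3p is known to lower SPRED1 and PIK3R2, which restrain signalling from the receptors of vascular endothelial growth factor, and VCAM1, which lets leukocytes adhere to the vessel wall. miR-126-5p is known to lower DLK1, an inhibitor of Notch signalling, in arterial endothelium. The members were chosen by name, as the rows chi-miR-126-3p and chi-miR-126-5p, 2 of the 1391 mature miRNAs listed.

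Small RNA was sequenced from lung, liver, spleen, kidney, heart and longissimus muscle of domestic goats (Capra hircus) to ask how miRNA expression differs between altitudes. The high-altitude group was 3 females of the Tibetan Goat population living at 3000 m, and the low-altitude group was 3 females of the Chuandong White Goat population living at 600 m, all labelled as older than 3 years. Each goat gave all 6 tissues, so there were 36 libraries, and the replicates were goats. Libraries of a population that carry the same number were taken as 1 goat, which the labels do not state, and values within goats rest on this. The populations differed in breed and rearing as well as altitude, and these cannot be told apart in this design.

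Levels are given as RPM, the reads of a miRNA per 1000000 counts of all mature miRNAs in its library. Rows with equal counts each enter this total, such as miR-133a-3p and miR-133b-5p, which lowers every RPM in heart and muscle. Library totals ran from 7108635 to 14407748 counts with a median of 10419740.5. At these totals the limit that a count of 0 allows, 3 counts, equals 0.208 to 0.422 RPM. miR-126-3p had between 9481 and 363877 counts per library and miR-126-5p between 2083 and 137418, and neither arm was at 0 in any library. The counting error of an arm was at most 2.19% of its value, and this covers counting error only.

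Both arms were abundant. miR-126-3p averaged 8269 ± 7108 RPM (SD, n = 36 libraries) and ranked 26 of 1391 miRNAs by mean level, and miR-126-5p averaged 4921 ± 3821 RPM and ranked 33. The rank within a library ran from 4 to 52 for miR-126-3p and from 10 to 109 for miR-126-5p. In bulk tissue, fewer endothelial cells and less miR-126 per cell cannot be told apart.

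miR-126-3p was highest in lung. Its level there ran from 5632 to 35201 RPM with a median of 20024 RPM, and averaged 19452 ± 10771 RPM (SD, n = 6 goats). Heart (8476 ± 2964 RPM, from 5603 to 14132, median 7486) and liver (8332 ± 2821 RPM, from 4623 to 12410, median 8781) followed. By library totals heart and liver differed by far less than the spread between goats, which changed with the scaling described below. Kidney averaged 5316 ± 3147 RPM (from 2282 to 10508, median 4773). Muscle (4076 ± 2121 RPM, from 2314 to 8093, median 3772) and spleen (3962 ± 1584 RPM, from 1297 to 5693, median 4273) were the lowest by library totals and overlapped with kidney. The mean in lung was 4.91 times that in spleen. Lung had the highest level of miR-126-3p in 6 of 6 goats by library totals, and in 4 of 6 with TMM, with heart highest in the other 2.

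miR-126-5p had another order of tissues. Liver had the highest level, from 7421 to 17472 RPM with a median of 10319 RPM and a mean of 11470 ± 3869 RPM (SD, n = 6). Spleen followed with 5407 ± 1013 RPM (from 4077 to 6826, median 5243). Kidney (3780 ± 2164 RPM, from 654.6 to 6565, median 3981), muscle (3520 ± 1031 RPM, from 2409 to 4906, median 3407) and heart (3483 ± 3157 RPM, from 898.8 to 9145, median 2246) had nearly equal means. Their ranges overlapped almost completely. Lung, the tissue richest in the other arm, was the lowest at 1866 ± 1074 RPM, with a range from 204.5 to 3472 RPM and a median of 1856 RPM. The mean in liver was 6.15 times that in lung, and liver was highest in each of the 6 goats, also with TMM. Lung was the lowest tissue for miR-126-5p in 3 goats, heart in 2 and kidney in 1, and with TMM lung was the lowest in 6 of 6.

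**Figure D1:**
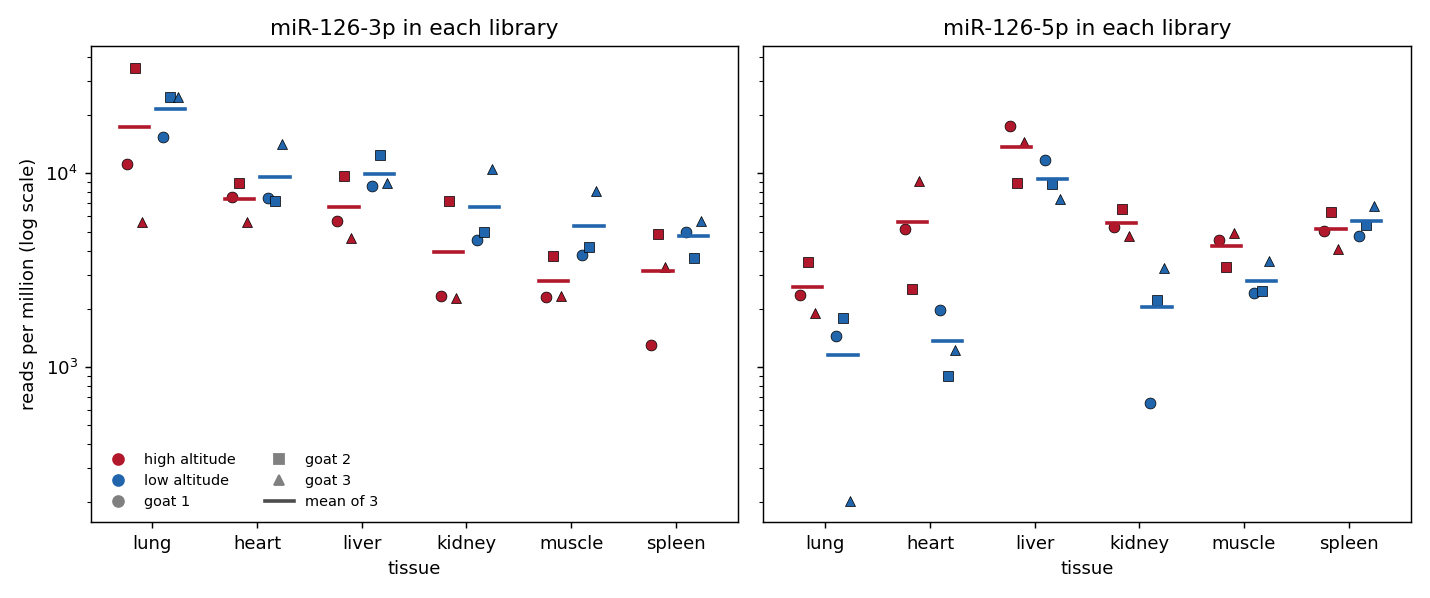
Level of miR-126-3p (left) and miR-126-5p (right) in RPM on a log axis, by tissue, in each of 36 libraries. Points are single goats with the goat number as the marker shape, and bars are means of 3 goats at high or low altitude. miR-126-3p was highest in lung at a mean of 19452 RPM over 6 goats, where miR-126-5p was lowest at 1866 RPM.

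The order of tissues was similar in both populations for miR-126-3p. At high altitude its means (n = 3 goats each) were ordered as lung 17318 ± 15729 RPM, heart 7348 ± 1663 RPM, liver 6674 ± 2689 RPM, kidney 3947 ± 2850 RPM, spleen 3153 ± 1801 RPM and muscle 2796 ± 823.3 RPM. At low altitude the order was lung 21586 ± 5382 RPM, liver 9991 ± 2099 RPM, heart 9604 ± 3923 RPM, kidney 6684 ± 3319 RPM, muscle 5356 ± 2378 RPM and spleen 4771 ± 1033 RPM. The positions of heart and liver, and of spleen and muscle, were exchanged, by less than the SD. For miR-126-5p liver was the top and lung the bottom of both orders. Heart moved most, from the second place at high altitude (5606 ± 3331 RPM) to the fifth at low altitude (1360 ± 544.0 RPM). At high altitude kidney (5525 ± 943.4 RPM) and spleen (5148 ± 1116 RPM) were below heart by less than its SD. The high-altitude hearts were at 5141, 2532 and 9145 RPM.

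Summed over both arms, the tissues differed less by library totals. Lung (21318 ± 11065 RPM) and liver (19802 ± 2351 RPM) were close, followed by heart (11960 ± 2871 RPM), spleen (9369 ± 2307 RPM), kidney (9096 ± 3716 RPM) and muscle (7596 ± 1995 RPM). The highest mean was 2.81 times the lowest. The lowest mean, that of muscle, is lowered by the equal rows of miR-133a-3p and miR-133b-5p in its totals. With TMM the order was liver (15585 ± 3719 RPM), heart (15348 ± 2930), lung (14053 ± 3503), muscle (12936 ± 2326), kidney (9038 ± 1505) and spleen (7094 ± 1770), a range of 2.20 times. The tissue specificity index, which is 0 for equal means in all tissues and 1 for a miRNA found in 1 tissue, was 0.690 for miR-126-3p and 0.685 for miR-126-5p. The median over the 308 miRNAs with a mean of at least 10 RPM was 0.696, so both arms lay near the middle of expressed miRNAs, with different top tissues.

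Differences between the 6 tissues were tested with edgeR, in 1 fit over all 36 libraries after TMM scaling, which sets library sizes by the bulk of miRNAs. Both arms differed between tissues (adjusted p = 7.4e-07 for miR-126-3p and 3.5e-05 for miR-126-5p, edgeR's quasi-likelihood test with Benjamini-Hochberg adjustment), as did 39.3% of all miRNAs. Of the 15 tissue pairs, 10 passed an adjusted p of 0.05 for miR-126-3p and 7 for miR-126-5p. This fit has no term for the goat, and with the goat as a block heart over muscle passed as well for miR-126-3p (0.73 on the log2 scale, adjusted p = 0.0269, edgeR's quasi-likelihood test with Benjamini-Hochberg adjustment, against 0.0609 without the block). Of all miRNAs, 9.63% passed between heart and muscle, 11.7% between heart and lung, 13.6% between heart and liver, 13.7% between heart and spleen and 14.4% between heart and kidney. Between kidney and the others 11.1% (liver), 13.7% (muscle), 14.7% (lung) and 16.5% (spleen) passed, and between liver and the others 15% (muscle) and 10.7% (spleen). Between lung and muscle 19.9% passed, and between muscle and spleen 17.3%. The largest difference of miR-126-3p was between lung and spleen, at a log2 fold change of 2.13 ± 0.27 (SE; adjusted p = 9.3e-07, edgeR's quasi-likelihood test with Benjamini-Hochberg adjustment), a pair in which 10.3% of miRNAs passed. The largest difference of miR-126-5p was between liver and lung, at 2.83 ± 0.41 (adjusted p = 6.8e-06, edgeR's quasi-likelihood test with Benjamini-Hochberg adjustment), a pair in which 9.85% passed. These 2 pairs passed in each of the 12 settings run for the tissue pairs. For miR-126-3p 4 pairs passed without low-altitude goat 2, and 6 without high-altitude goat 1 or without low-altitude goat 3. For miR-126-5p 3 passed without high-altitude goat 1.

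Other pairs moved with the scaling. The mean TMM factor, by which a library total is multiplied, ran from 0.599 ± 0.166 in muscle and 0.780 ± 0.136 in heart to 1.43 ± 0.44 in lung (SD, n = 6 each). The mean log2 factor differed by 1.24 between lung and muscle. With TMM, miR-126-3p averaged 6574 RPM in muscle, above liver (6233) and kidney (5116), and 2957 RPM in spleen. miR-126-5p averaged 6362 RPM in muscle, second to liver (9352) and above spleen (4137). With TMM, heart and lung had similar levels of miR-126-3p (11234 ± 4491 and 12630 ± 3913 RPM of the scaled totals), at a log2 fold change of -0.21 for heart over lung (adjusted p = 0.9999, edgeR's quasi-likelihood test with Benjamini-Hochberg adjustment). With library totals alone it was -1.20 (adjusted p = 0.0387, same test). Heart over liver passed with TMM, at 0.81 (adjusted p = 0.0326, edgeR's quasi-likelihood test with Benjamini-Hochberg adjustment), but not with RLE (0.74, adjusted p = 0.0660, same test) or without any 1 goat other than high-altitude goat 2 (adjusted p up to 0.250), and stood at 0.04 with library totals. Library totals left 5 of 15 pairs past the threshold for miR-126-3p, and muscle and spleen, which differed at 1.16 with TMM, stood at 0.00 (-0.0035). For miR-126-5p library totals left 5 pairs. Heart over lung went from 1.49 to 0.68 and lung over muscle from -2.26 to -0.999, both no longer past the threshold, as was kidney over lung, while liver over muscle went from 0.58 to 1.71 and passed.

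The ratio of the arms within a library needs no scaling between libraries. The ratio of 5p to 3p counts ran from 0.00828 to 3.90 over the 36 libraries, with a median of 0.773. miR-126-5p exceeded miR-126-3p in 13 libraries and miR-126-3p exceeded miR-126-5p in 23. The 13 were 5 of spleen, 3 of liver, 2 of kidney, 2 of muscle and 1 of heart, and none was of lung. On the log2 scale, with 0.5 counts added to each arm, spleen (0.57 ± 0.71) and liver (0.47 ± 0.95) had the highest means (SD, n = 6 goats). Muscle (-0.13 ± 0.95), kidney (-0.60 ± 1.58) and heart (-1.69 ± 1.57) followed, and lung was the lowest at -3.54 ± 1.85. Lung had the lowest ratio in each of the 6 goats.

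Tissue accounted for 58.0% of the sum of squares of the log2 ratio, altitude within tissues for 25.0%, and goats of the same tissue and altitude for 17.02%. Exchanging the tissue labels within each goat never gave a sum of squares between tissues as large in 100000 draws (permutation p = 1e-05, upper tail, the smallest they can give). Exchanging them over all libraries gave a permutation p of 5e-05. For the 54 other precursors described below, the median share between tissues was 32.5%. Between liver and lung the log2 ratio differed by 4.01 ± 1.33 (SD over 6 goats), a 16.1-fold difference, with liver higher in 6 of 6 goats. Spleen was higher than lung in 6 of 6 goats, by 17.3-fold. Each of these pairs had an exact p of 0.031, the smallest that 6 goats allow in a two-sided sign-flip test, and 0.0521 after Benjamini-Hochberg adjustment over 15 pairs. In 9 of the 15 pairs all 6 goats differed in the same direction. Liver and spleen, the neighbours at the top of the order, did not (2 goats higher in liver and 4 in spleen, exact p = 0.75).

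Between altitudes, the arms leaned in opposite directions. miR-126-3p had a lower mean at high altitude in 6 of 6 tissues and miR-126-5p a higher fitted level in 5 of 6, but neither arm was called in any tissue by edgeR's quasi-likelihood test. To be called, a miRNA had to pass an adjusted p of 0.05 and to differ by 1.5 or more on the log2 scale in either direction. At the wider of 2 simulated spreads, these fits missed most log2 differences of 2. The lack of a call thus does not show equal levels. The directions were the same with TMM, RLE and library size scaling. Of 12 tests (2 arms in 6 tissues), 0 were called and 2 had an unadjusted p under 0.05, both of miR-126-5p, as did 444 of 8346 tests of all miRNAs (5.32%). The 8346 include miRNAs without counts in a tissue, which cannot pass. The background of calls was as low, with 0% of miRNAs called in heart, kidney, liver and lung, 0.0719% in muscle and 0.144% in spleen. DESeq2, the other tool run, called 2 of the 12 tests, miR-126-5p in heart and in kidney, where it called 2.59% and 2.08% of miRNAs. It called 2.59% in spleen, 2.23% each in liver and muscle and 1.51% in lung, neither arm among them. In these fits the mean log2 TMM factors of high and low altitude differed by 0.17 in heart, -0.17 in lung, -0.12 in muscle and -0.11 in liver. With library totals alone the log2 fold change of miR-126-5p was 2.04 in heart, 1.44 in kidney and 1.17 in lung, and that of miR-126-3p was -0.39, -0.76 and -0.32.

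Groups of goats that do not overlap were read against all miRNAs with counts in a tissue. High altitude lay above low altitude without overlap for 13.4% of miRNAs of heart, 6.41% of spleen, 5.28% of muscle, 3.52% of lung, 3.33% of liver and 2.77% of kidney. It lay below for 6.68%, 7.96%, 8.45%, 9.12%, 8.37% and 5.9% in the same order of tissues. miR-126-5p was above in heart, kidney and lung, and miR-126-3p was below in muscle.

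In heart, miR-126-5p was at 5141, 2532 and 9145 RPM in high-altitude goats 1 to 3 and at 1960, 898.8 and 1222 RPM in low-altitude goats 1 to 3. Each high-altitude heart was above each low-altitude heart. The log2 fold change of high over low altitude was 1.82 ± 0.54 (SE; adjusted p = 0.521, edgeR's quasi-likelihood test with Benjamini-Hochberg adjustment), and DESeq2 gave 1.85 (adjusted p = 0.0277). miR-126-3p in the same hearts was at 7528, 8914 and 5603 RPM at high altitude and at 7445, 7236 and 14132 RPM at low altitude. These groups overlapped, at a log2 fold change of -0.52 ± 0.34, which became -0.32 without goat 3 of either group and -0.82 without high-altitude goat 2.

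In kidney, miR-126-5p was at 5283, 6565 and 4725 RPM in high-altitude goats and at 654.6, 2216 and 3236 RPM in low-altitude goats. The groups did not overlap, and low-altitude goat 1 was far below the others. The log2 fold change was 1.75 ± 0.40 (adjusted p = 0.630, edgeR's quasi-likelihood test with Benjamini-Hochberg adjustment) and 1.85 by DESeq2 (adjusted p = 0.00261). miR-126-3p was at 2321, 7238 and 2282 RPM at high altitude and at 4550, 4995 and 10508 RPM at low altitude. Goat 2 at high altitude and goat 3 at low altitude were the high values, the groups overlapped, and the log2 fold change was -0.85 ± 0.36.

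In lung, miR-126-5p was at 2361, 3472 and 1911 RPM at high altitude and at 1444, 1802 and 204.5 RPM at low altitude. The groups did not overlap, but low-altitude goats 1 and 2 came close to the lowest high-altitude goat. The log2 fold change was 1.28 ± 0.74. miR-126-3p was at 11121, 35201 and 5632 RPM at high altitude and at 15371, 24678 and 24709 RPM at low altitude. The high-altitude lungs held both the highest and the lowest value. The log2 fold change of -0.39 ± 0.49 became 0.019 without high-altitude goat 3, -0.17 without goat 1, -0.99 without goat 2 and -0.22 without low-altitude goat 3.

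In liver, the tissue richest in miR-126-5p, this arm was at 17472, 8919 and 14455 RPM at high altitude and at 11719, 8833 and 7421 RPM at low altitude. Goat 2 at high altitude lay among the low-altitude goats, and the log2 fold change was 0.74 ± 0.49 (0.48 without high-altitude goat 1 and 1.16 without goat 2). miR-126-3p was at 5680, 9718 and 4623 RPM against 8663, 12410 and 8899 RPM, with the same goat overlapping and a log2 fold change of -0.52 ± 0.30 (-0.32 without high-altitude goat 3).

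In muscle, miR-126-3p was at 2314, 3746 and 2326 RPM at high altitude and at 3797, 4178 and 8093 RPM at low altitude. Here the high-altitude goats were all below the low-altitude goats, although goat 2 at high altitude missed low-altitude goat 1 by little. The log2 fold change was -0.81 ± 0.36. miR-126-5p was at 4523, 3303 and 4906 RPM against 2409, 2468 and 3510 RPM, and overlapped by 1 goat on each side, with a log2 fold change of 0.81 ± 0.42.

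In spleen both arms leaned the same way. miR-126-5p was at 5063, 6304 and 4077 RPM at high altitude and at 4751, 5422 and 6826 RPM at low altitude, and miR-126-3p was at 1297, 4892 and 3272 RPM against 4967, 3655 and 5693 RPM. The groups overlapped for both arms. The log2 fold changes were -0.20 ± 0.33 for miR-126-5p, which became 0.031 without low-altitude goat 3, and -0.70 ± 0.45 for miR-126-3p, which became -0.38 without high-altitude goat 1 and -1.11 without high-altitude goat 2. Exact permutation tests of the goats on log2 RPM gave p = 0.1 where the groups did not overlap, the smallest p that 3 against 3 goats allow in a two-sided test, and 0.21 after Benjamini-Hochberg adjustment over 21 such tests of both arms and their ratio.

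Whether the altitude difference varied between tissues was tested as an interaction in the fit over 36 libraries. Neither arm passed (adjusted p = 0.949 for miR-126-5p and 1 for miR-126-3p, edgeR's quasi-likelihood test with Benjamini-Hochberg adjustment), and 0.216% of all miRNAs did. Summing both arms before the test, a choice made after seeing the data, left log2 fold changes between -0.42 (spleen) and 0.22 (liver), none called. The total of the arms averaged 12993 ± 8110 RPM over 18 high-altitude libraries and 13387 ± 6511 RPM over 18 low-altitude libraries.

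Over the mean of 6 tissues, the log2 RPM of miR-126-5p was 12.41, 12.20 and 12.39 in high-altitude goats 1 to 3 and 11.29, 11.42 and 11.16 in low-altitude goats 1 to 3. The groups did not overlap and the goats of a group lay close together, at a difference of 1.04 on the log2 scale (exact permutation p = 0.1, n = 3 goats per group). Of the 260 miRNAs with counts in all libraries, 13.5% were separated in this direction and 16.5% in the other, so such a separation was not rare. miR-126-3p was at 11.91, 13.07 and 11.85 against 12.70, 12.86 and 13.39, where goat 2 at high altitude overlapped, at a difference of -0.70 (exact permutation p = 0.3; -1.10 without that goat).

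The ratio of the arms also separated the populations. Over the mean of 6 tissues, the log2 ratio of 5p to 3p was 0.49, -0.87 and 0.54 in high-altitude goats 1 to 3 and -1.40, -1.44 and -2.23 in low-altitude goats 1 to 3. Each high-altitude goat was above each low-altitude goat, and goat 2 was the lowest of its group. In linear terms these goat means were 1.41, 0.546 and 1.45 for the high-altitude goats, against 0.378, 0.369 and 0.214 for the low-altitude goats. The difference was 1.74 on the log2 scale, or 3.35-fold (exact permutation p = 0.1, n = 3 goats per group). miR-126-5p exceeded miR-126-3p in 10 of 18 libraries at high altitude and in 3 of 18 at low altitude.

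By tissue, the log2 ratio in kidney was 1.19, -0.14 and 1.05 in the high-altitude goats and -2.80, -1.17 and -1.70 in the low-altitude goats, a difference of 2.59 on the log2 scale. In lung it was -2.24, -3.34 and -1.56 against -3.41, -3.78 and -6.92, a difference of 2.32 that came to 1.22 without low-altitude goat 3. In heart it was -0.55, -1.82 and 0.71 against -1.93, -3.01 and -3.53, a difference of 2.27. In these tissues and in muscle, the groups did not overlap, with high altitude above low, although in lung and heart the nearest goats of the groups almost met. In muscle the log2 ratio was 0.97, -0.18 and 1.08 against -0.66, -0.76 and -1.21, a difference of 1.49. In liver it was 1.62, -0.12 and 1.64 against 0.44, -0.49 and -0.26, and in spleen 1.97, 0.37 and 0.32 against -0.06, 0.57 and 0.26. There the groups overlapped, at differences of 1.15 in liver (1.74 without high-altitude goat 2) and 0.63 in spleen, and the one in spleen was 0.086 without high-altitude goat 1. High-altitude goat 2 had the lowest ratio of its group in 5 of 6 tissues.

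**Figure D2:**
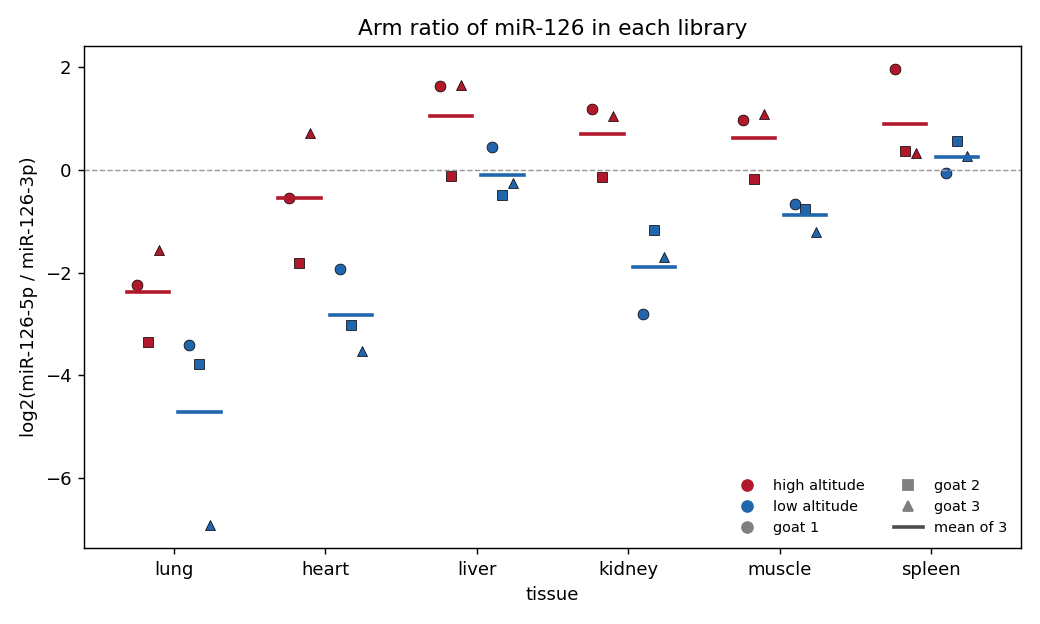
Log2 ratio of miR-126-5p to miR-126-3p counts by tissue in each of 36 libraries, with 0.5 counts added to each arm. Points are single goats with the goat number as the marker shape, bars are means of 3 goats, and the dashed line marks equal arms. High-altitude goats lay above low-altitude goats without overlap in lung, heart, kidney and muscle, and the mean was lowest in lung at -3.54.

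The same ratio was taken for other hairpins as a background. Of 482 precursors with both arms listed, 81 had a mean of at least 10 RPM for both, and 55 of these, miR-126 among them, had counts for both arms in all 36 libraries. The other 26 were left out because an arm was at 0 in some library. For some of these, such as let-7a, whose log2 ratio ran from -18.09 to 10.12, the higher arm switched between libraries, and for others, such as miR-30a (5.07 to 20.67), it did not. Whether arm names were assigned alike in all libraries was not tested. This bears on every level of a single arm, on comparisons of the arms and on every arm ratio given here. The SD of the log2 ratio over libraries was 1.91 for miR-126, the fifth highest of the 55. Of the 26 left out, some had a larger SD, such as let-7a (11.7) and miR-30a (4.88), and some a smaller one, such as miR-9120 (0.412). In the 54 others it had a median of 0.999 and ran from 0.405 to 2.86. Between altitudes miR-126 had the second highest difference toward 5p of the 55. Some of those left out had a higher difference, such as miR-450 (2.57), and some a lower one, such as let-7a (-2.91). Of the 54 others with counts in all libraries, 16 had a higher and 38 a lower mean ratio at high altitude. Their median difference was -0.37, with a range from -4.71 to 2.17. Goat means that did not overlap, with high altitude above, were found for 16.4% of the 55 precursors, and 34.5% showed the opposite. In the tissues where miR-126 did not overlap, the share of precursors separated in its direction was 14.5% in heart, 10.9% in kidney, 12.7% in lung and 9.09% in muscle, beside 5.45% in liver and 12.7% in spleen. The opposite was found for 38.2% in heart, 29.1% in spleen, 27.3% each in kidney, muscle and liver, and 18.2% in lung. A separation of that kind was thus not rare among precursors, and most of the separated ones went the other way.

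**Figure D3:**
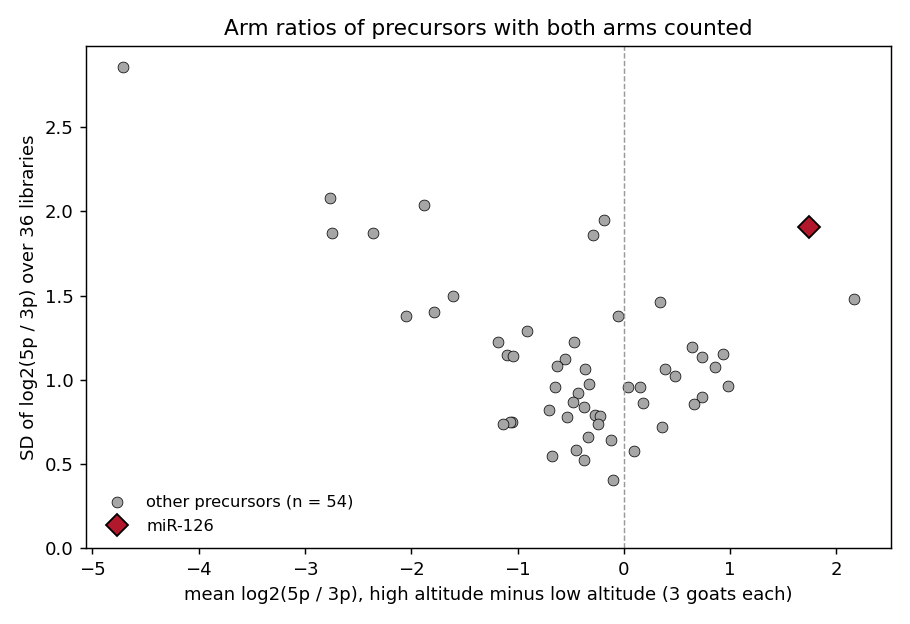
Difference of the mean log2 ratio of 5p to 3p counts between high and low altitude (horizontal axis, 3 goats each) and SD of the log2 ratio over 36 libraries (vertical axis) for miR-126 and 54 other precursors with counts of both arms in all libraries. miR-126 lies at a difference of 1.74 and an SD of 1.91, and 38 of the 54 others lie to the left of the dashed line at 0.

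miR-126 was set beside other miRNAs known from endothelium and vessel growth. Of 30 names 25 were found, in 29 rows, of which 22 had a mean of at least 10 RPM. miR-27a-3p, miR-17-5p, miR-18a-5p, miR-503-5p and miR-146a-5p were not listed. The most abundant was miR-10a-5p, made from a HOX gene cluster and known to limit endothelial inflammation, with 36035 ± 54515 RPM (SD, n = 36 libraries). It averaged 104586 RPM in lung and 1189 RPM in heart, whereas miR-126-3p differed between these tissues by 2.29-fold in RPM. The summed level of the list was highest in lung (197934 ± 63228 RPM) and lowest in muscle (48453 ± 8123 RPM). Without miR-10a-5p the other 28 rows were highest in heart (162772 ± 47941 RPM), followed by liver (93772 ± 22383 RPM) and lung (93349 ± 14857 RPM), with muscle still the lowest (44070 ± 6675 RPM). Between altitudes, 1 of the 29 rows was called by edgeR, miR-100-5p, which targets MTOR, in spleen at a log2 fold change of -3.56 (adjusted p = 0.0386, edgeR's quasi-likelihood test with Benjamini-Hochberg adjustment). Leaving out any 1 of the 6 goats ended this call (adjusted p from 0.0524 to 0.297, same test), as did library totals and the replicate number as a block. The log2 fold change stayed between -3.36 and -3.90 without 1 goat, at -3.50 with library totals and at -3.61 with the block. DESeq2 called this row at -3.55, and 1 fit over 36 libraries did not, at -3.61. No row was called in the other 5 tissues by edgeR's quasi-likelihood test. In heart 7 of 29 rows had an unadjusted p under 0.05, beside 6.40% of all miRNAs, and DESeq2 called 4, beside 2.59%. These shares, here and in the other tissues, are over all 1391 miRNAs, of which 838 had counts in heart. They thus include many miRNAs that cannot pass, and the list and its background were not matched by level. In kidney 6 rows had an unadjusted p under 0.05 (4.601% of all miRNAs) and in liver 3 (4.24%). In lung and in muscle 2 rows each did (4.74% and 6.18%). DESeq2 called 1 row in kidney (2.08% of all miRNAs), 3 in liver (2.23%), 1 in lung (1.51%) and 2 in muscle (2.23%). In spleen the numbers were 6 (5.75%) and 3 (2.59%). The median log2 fold change of the list ran from -0.29 in kidney to 0.00 in liver, muscle and spleen, beside 0 for all miRNAs in each tissue. Both arms of miR-126 belong to this list. Over the 36 libraries, which share goats and tissues, its sum had r = 0.39 with miR-126-3p and -0.37 with miR-126-5p (Pearson's r of log2(RPM + 1)).

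The hepatocyte and striated muscle markers followed the labelled tissues. The hepatocyte markers (2 of 2 names found), led by miR-122-5p, summed to 50657 ± 65303 RPM in liver and at most 81.5 RPM on average elsewhere. The liver of high-altitude goat 3 held 179959 RPM, and the other livers ran from 6201 to 53582 RPM. The striated muscle markers (6 of 7, without miR-133b-3p), led by miR-133a-3p, were at 251418 ± 36127 RPM in muscle and 149854 ± 43473 RPM in heart. The smooth muscle and pericyte markers (4 of 4), led by miR-143-3p, were highest in spleen (427934 ± 77166 RPM) and lung (236317 ± 67211 RPM), and miR-143-3p was also the most abundant miRNA of both tissues. These mural cell markers thus peaked in a tissue where miR-126-3p was lowest. Their sum was correlated with miR-126-3p at r = 0.14 and with miR-126-5p at r = 0.12 over the 36 libraries, which share goats and tissues (Pearson's r of log2(RPM + 1)).

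Leukocyte and platelet markers (6 of 6), led by miR-142-5p, were highest in spleen (43259 ± 18525 RPM) and correlated with miR-126-3p at r = 0.12 and with miR-126-5p at r = 0.33. Erythroid markers were almost wholly miR-486-5p, and their sum was highest in muscle (22934 ± 11371 RPM) and heart (22489 ± 15899 RPM), with r = -0.22 and -0.06. Without miR-486-5p the erythroid sum was highest in spleen (913.8 ± 597.2 RPM) and liver (302.2 ± 163.3 RPM), against 88.3 RPM in heart and 60.8 RPM in muscle. Of the erythroid names 4 of 7 were found, miR-451 was not listed, and both arms of miR-144 were at 0 in 16 libraries. Epithelial markers (5 of 5), led by miR-141-3p, were highest in lung (8355 ± 2469 RPM; r = 0.44 and -0.09), and without miR-141-3p in kidney (2760 ± 2673 RPM, against 1822 ± 953 RPM in lung). Mesenchymal markers (3 of 3), led by miR-199a-3p, were highest in lung (8322 ± 2330 RPM) and close to that in spleen (8107 ± 2513 RPM; r = 0.46 and 0.20). Without miR-199a-3p they were highest in spleen (2340 ± 1200 RPM), and lung was the second lowest tissue (591.5 ± 99.8 RPM). The hepatocyte sum had r = 0.03 with miR-126-3p and 0.59 with miR-126-5p, and the striated muscle sum -0.23 and 0.04.

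Some list sums also separated the altitudes without overlap, in either direction, in tissues where miR-126-5p or the arm ratio did and in tissues where neither did. In liver the endothelial and vessel sum (76739 against 115854 RPM) and the erythroid sum (3672 against 9240 RPM) were lower at high altitude. In spleen the smooth muscle and pericyte sum was lower (376257 against 479611 RPM). In heart the endothelial and vessel list was lower at high altitude (130721 ± 15461 against 197202 ± 47200 RPM; SD, n = 3 goats) by its sum, with the nearest goats at 142449 and 142717 RPM. Of its 29 rows 12 had a log2 fold change above 0 and 15 below, with a median of -0.01 and 0 called by edgeR's quasi-likelihood test. The smooth muscle and pericyte sum was higher there (162415 ± 40318 against 68324 ± 8559 RPM), but this was miR-143-3p alone. The other 4 rows summed to 864.7 ± 159.5 RPM at high and 1829 ± 198 RPM at low altitude, 3 of the 5 rows had a log2 fold change below 0, and the median was -0.70. The same held in muscle, where the sum was higher at high altitude (43277 ± 17567 against 20517 ± 2510 RPM) and the other 4 rows were lower (380.6 against 633.7 RPM). In lung the whole sum was lower at high altitude (186341 ± 58578 against 286294 ± 19200 RPM).

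Leukocyte and platelet markers in heart were higher at high altitude (2778 against 1781 RPM), of which the rows other than miR-142-5p summed to 390.8 and 390.0 RPM. Of the 6 rows, 4 had a log2 fold change above 0 and 2 below, with a median of 0.65. Epithelial markers were higher in heart (37.5 against 10.5 RPM) and muscle (41.8 against 11.5 RPM), and hepatocyte markers in lung (74.1 against 9.58 RPM). The sum of striated muscle markers was higher in kidney (930.0 against 250.3 RPM; 4 of 6 rows above 0) and lower in muscle (226239 against 276597 RPM; 4 of 6 rows below 0, median -0.21). In muscle the rows other than miR-133a-3p reached 67534 RPM in low-altitude goat 3. The part of these cell types in the miR-126 values was not tested.

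The miRNAs whose levels followed each arm most closely were found by Pearson's r of log2(RPM + 1) over the 36 libraries, among 306 other miRNAs with a mean of at least 10 RPM. For miR-126-3p they were miR-3432-5p (r = 0.71), miR-24-3p (0.70), miR-138-5p (0.70), miR-449c-5p (0.66) and miR-247-5p of the predicted class (0.65). All but miR-24-3p, which was highest in heart, had their highest mean in lung, and miR-449c-5p is known from ciliated airway cells. For miR-126-5p they were miR-139-5p (r = 0.63), miR-101-3p (0.60), miR-122-5p (0.59), miR-122-3p (0.59) and miR-29a-3p (0.58). Each of these had its highest mean in liver, and both arms of miR-122 mark hepatocytes. The arms of miR-126 themselves had r = -0.33 with each other, so that miR-126-5p would rank 297 among the 306 by likeness to miR-126-3p. The libraries share goats and tissues, so these values describe the libraries and carry no test.

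The most abundant miRNAs of each tissue set the scale of these levels. They were miR-133b-5p, listed with the same counts as miR-133a-3p, in heart (12.4% of counts) and muscle (23.6%), miR-10b-5p in kidney (31.5%), miR-26a-5p in liver (16.4%) and miR-143-3p in lung (23.3%) and spleen (42.1%). Both miR-133b-5p and miR-133a-3p enter the library totals, which lowers every RPM in heart and muscle. Tissue levels with equal rows merged were not computed. Leaving out the most abundant miRNA of each library brought spleen to 7024 RPM of miR-126-3p and 9545 RPM of miR-126-5p.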

How the data were processed

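Small RNA libraries (Illumina TruSeq kit) were made from 6 tissues of 6 goats. The authors mapped reads with Bowtie to goat genome ARS1 and counted them with miRDeep2. They deposited unnormalized read counts, 1 whole number for each mature miRNA in a library, and had dropped miRNAs that never reached 3 reads. Each library's group, tissue and number came from the labels. From the counts, RPM, arm ratios, means, SDs and permutation tests were computed in Python 3.11.15 (NumPy 2.4.6, pandas 2.3.3, SciPy 1.17.1, statsmodels 0.14.6), and models in R 4.3.3 with edgeR 4.0.16 (quasi-likelihood test, TMM, all 1391 miRNAs, Benjamini-Hochberg adjustment) and, as an alternative, DESeq2 1.42.0. Altitudes were compared within each tissue, and tissues in 1 fit of 12 groups. The fits were tested on simulated data. At a dispersion (spread between goats beyond counting error) of 0.4, the altitude fits recovered from 19% (spleen) to 37% (lung) of log2 differences of 2. Of log2 differences of 4 they recovered from 91% (heart) to 100% (lung). At a dispersion of 0.05 they recovered from 93% (lung) to 98% (spleen) of log2 differences of 2. Which dispersion is nearer to that of miR-126 was not tested.

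No 2 libraries held equal values. The study sampled all 6 tissues from each goat, and libraries of a population with the same number were taken as the same goat, which neither labels nor methods state. Their deviations from group means had a mean correlation of 0.069 (41 of 90 pairs over 0.1), no higher than the 0.076 of same-numbered libraries of different populations. miRNAs were named by rule: both arms of miR-126, the 5 most like each arm, the most abundant and the called members of the endothelial and cell type lists, and the most abundant of each tissue. The members and lists were chosen with earlier results of these data known. Alternatives covered scaling, tests, filters, pseudocounts, blocks and leaving out each goat.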

Additional observations from a re-analysis of the deposited data

Results flagged for a closer look

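Among 18 groups of 6 libraries of a tissue (3 measures in 6 tissues), 2 held a library far from the other 5, and chance gives about 1 in 20. In muscle, low-altitude goat 3 had 8093 RPM of miR-126-3p, and the gap to the next library was 0.677 of the whole range. In spleen, high-altitude goat 1 had a log2 ratio of 5p to 3p of 1.97, with a gap of 0.688 of the range. Rows outside the members carried a few reads under a similar name. A further row named miR-126-3p, listed among predicted miRNAs, reached 9 counts in a library, miR-126b-5p reached 4 and miR-126b-3p reached 16, each above the 3 counts that a count of 0 allows. Their totals over all libraries were 16, 18 and 72.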

How the results depend on the processing

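The altitude difference of the arm ratio kept its direction in each of the 70 alternative values (7 differences under 10 settings), and leaving out 1 goat gave 1.47 to 2.21 for the mean of 6 tissues. Pairing same-numbered goats cannot change a mean difference, such as that of 1.74, so pairing was no test of it. Adding 1 count or none could hardly change a ratio either, as no arm had fewer than 2083 counts. The direction was thus tested only by leaving out 1 goat and by summing counts before taking the ratio. The tissue difference of the ratio passed its permutation test in all 9 alternatives, among them the same changes of the added count.

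No arm was called between altitudes in any setting but DESeq2, which called miR-126-5p in heart (1.85, adjusted p = 0.0277; 0.0277 to 1 over the alternatives) and kidney (1.85, adjusted p = 0.00261; 0.00261 to 1). Leaving out 1 goat reversed miR-126-3p in lung (-0.99 to 0.019) and miR-126-5p in spleen (-0.35 to 0.031); the cause was not tested. The count of called miRNAs over the 6 tissues was 3 in the main fit (444 at an unadjusted p under 0.05), 184 with DESeq2, 30 with the edgeR exact test, 53 with the likelihood ratio test, 18 with filterByExpr, which tests fewer miRNAs, and 54 with 1 fit over 36 libraries. It was 0 with the replicate number as a block in edgeR (350 at an unadjusted p under 0.05), and 0 to 12 without 1 goat (0 without high-altitude goat 3 or low-altitude goat 3, 12 without high-altitude goat 2, 5 without high-altitude goat 1). Same-numbered goats of the populations are different animals, and 7 of 18 correlations of their deviations were over 0.1. The goat as a block in the tissue fit brought heart over muscle past the threshold for miR-126-3p (0.73, adjusted p = 0.0269, edgeR's quasi-likelihood test) and changed no other call.

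The tissue pairs past the threshold for miR-126-3p numbered 10, 5 with library size only and 4 to 9 without 1 goat (6 without high-altitude goat 1 or low-altitude goat 3), and for miR-126-5p 7, 5 with library size only, and 3 to 7 without 1 goat (3 without high-altitude goat 1). Muscle over spleen reversed for miR-126-3p to -0.0035 with library size only, by the TMM factors of the tissues. Mean levels in muscle moved to 6574 (3p) and 6362 (5p) with TMM and to 6405 and 6122 with RLE, and that of 5p in spleen to 4137 and 4232. Without the most abundant miRNA they were 4605 for 5p in muscle and, in spleen, 7024 for 3p and 9545 for 5p. Of the 5 miRNAs most like miR-126-3p, 2 were shared with Spearman's correlation, 1 with a minimum of 100 RPM, which only 1 of them passes, 3 over 12 means and 3 with TMM. For miR-126-5p these were 3, 3 (all that pass the minimum), 2 and 3.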
